A study of Homo sapiens with 6 samples.

Results

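The receptors, kinases and transcription factors that pass a type I or type III interferon signal into the nucleus were followed in WT and *FGFR2* KO HaCaT keratinocytes. The rows of 9 genes were taken from the deposited tables by matching Ensembl identifiers to GENCODE symbols: 4 receptor chains (*IFNAR1*, *IFNAR2*, *IFNLR1* and *IL10RB*), 2 kinases (*JAK1* and *TYK2*) and 3 transcription factors (*STAT2*, *IRF9* and *IRF1*). All 9 were found among the 21475 genes used, and all 9 passed the minimum of 0.5 FPKM on average that was set for testing, as did 12241 genes in total. HaCaT cells are human skin keratinocytes that became immortal spontaneously. RNA was sequenced from 3 WT cell lines and from 3 cell lines in which *FGFR2* had been knocked out by CRISPR/Cas9 with 1 sgRNA, 1 library each. All lines were grown in high-glucose DMEM with serum, and no interferon or other stimulus is named for these samples. The KO lines are clones grown from single cells. Of the WT lines of the study, most are such clones and another is the starting population. The labels do not say whether a sequenced WT library is that population. A figure legend of the paper describes 3 HaCaT lines of these RNA data as clonally expanded, without saying whether they are the WT lines. Differences between clones and the loss of FGFR2 can be told apart only as far as the spread among 3 lines allows. Values per library are given throughout in the order of replicates 1, 2 and 3.

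Type I interferons (IFN-α and IFN-β) bind the receptor pair IFNAR1 and IFNAR2, and type III interferons (IFN-λ) bind IFNLR1 together with IL10RB, a chain that receptors for other cytokines of the IL-10 family also use. JAK1, bound to IFNAR2 and IFNLR1, and TYK2, bound to IFNAR1 and IL10RB, are tyrosine kinases that phosphorylate STAT proteins, among them STAT2, which joins IRF9 in the complex ISGF3 to activate interferon-stimulated genes (ISGs) at the ISRE, a short DNA element. IRF1 is itself induced by interferons through an element called GAS, which STAT dimers bind, and activates an overlapping set of genes. Keratinocytes respond to both types of interferon.

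Values are FPKM as deposited, a measure of fragments scaled to gene length and sequencing depth. Levels of different genes can be set side by side only as far as the gene lengths used, which are not given, allow. The depth was estimated from the steps between low values as 67600000 to 87900000 fragments per library, which means that 1 FPKM on a transcript of 1 kb stands for 67.6 to 87.9 fragments. *FGFR2*, the targeted gene, had 21.6, 39.7 and 15.02 FPKM in the WT lines and 3.04, 2.26 and 4.31 FPKM in the KO lines, with no overlap. All 10 keratinocyte markers of a list were expressed, with a summed level of 12976 to 24053 FPKM in the WT and 18903 to 36789 FPKM in the KO libraries. The 8 fibroblast markers summed to 7.99 to 33.2 FPKM in the WT and 6.92 to 12.6 FPKM in the KO libraries, with the highest sum in WT replicate 2, where *DCN* (decorin) had 15.5 FPKM and *COL1A1* (a collagen chain) 16.7 FPKM. *COL1A1* had 6.82 to 16.7 FPKM over the 6 libraries, *LUM* (lumican) reached at most 1.85 FPKM, and the other 5 markers, *COL1A2*, *COL3A1*, *PDGFRA*, *PDGFRB* and *THY1*, each stayed at or under 0.064 FPKM; the part of such cells in the results was not tested. The 5 melanocyte markers summed to at most 5.58 FPKM and the 6 immune cell markers to at most 1.94 FPKM. Mitochondrial genes took between 11.9% (KO replicate 3) and 27.6% (WT replicate 1) of the FPKM. WT replicate 2 also held the highest level of *JAK1*, *TYK2*, *STAT2*, *IRF9* and *IRF1*. KO replicate 3 held the lowest level of *JAK1*, *STAT2* and *IRF9*. Results resting on these libraries are therefore given without them as well. In such bulk samples, fewer cells of a type and less RNA per cell cannot be told apart.

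**Figure D1:**
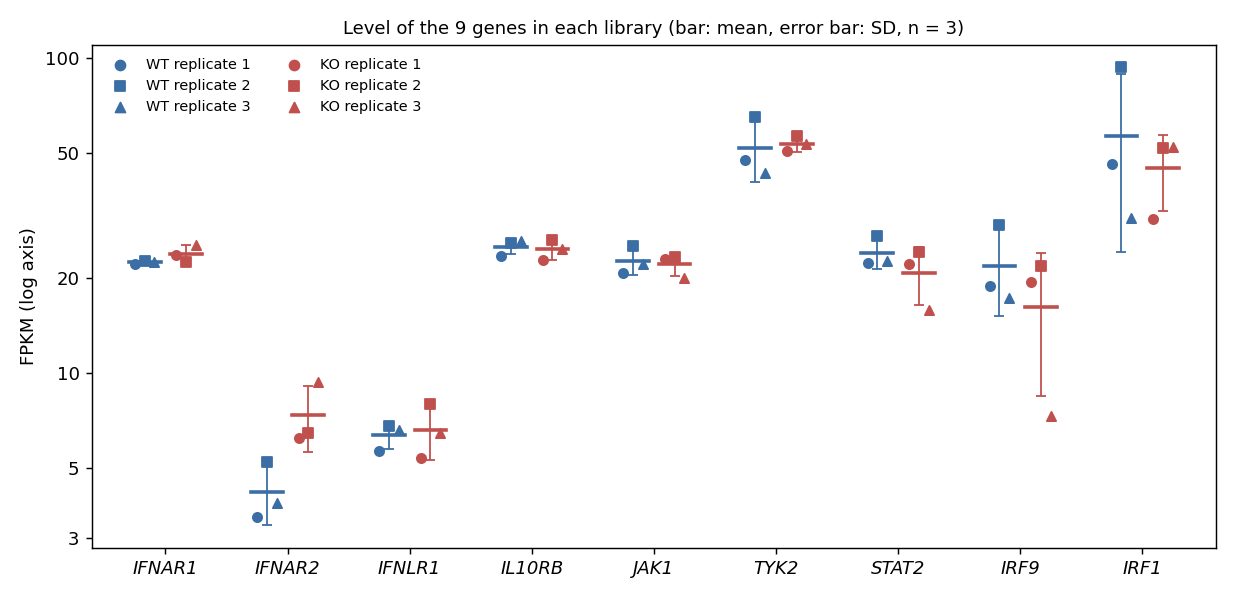
FPKM on a log axis of each gene in each of the 6 libraries, with WT in blue and KO in red; horizontal bars are means and error bars the SD (n = 3). In *IFNAR2* each KO library lies above each WT library, whereas the groups overlap in the other 8 genes.

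The receptor chains fell into a high and a low pair. In WT libraries *IL10RB* had 25.2 ± 1.39 FPKM and *IFNAR1* 22.5 ± 0.225 FPKM, whereas *IFNLR1* had 6.34 ± 0.602 FPKM and *IFNAR2* 4.197 ± 0.9001 FPKM (SD, n = 3 each). Each receptor thus combined a chain at a high and a chain at a low mRNA level. In KO libraries the order of the low pair was turned around, with 7.37 ± 1.76 FPKM for *IFNAR2* and 6.59 ± 1.30 FPKM for *IFNLR1* (SD, n = 3), but their ranges overlapped. Of all members, *TYK2* and *IRF1* were highest in both groups, with overlapping ranges. Below them *IL10RB*, *STAT2*, *JAK1*, *IFNAR1* and *IRF9* followed in WT libraries with means from 25.2 to 21.9 FPKM, and no neighbors in this order had separate ranges.

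*IFNAR2* encodes the chain that binds type I interferon with high affinity. It lies on chromosome 21 from 33205282 to 33265675 in GRCh38 (ENSG00000159110). Its level was 3.50, 5.21 and 3.88 FPKM in the WT lines and 6.24, 6.46 and 9.40 FPKM in the KO lines. The lowest KO value was higher than the highest WT value, and KO replicate 3 was at the top. The ratio of the means was 1.76, and the log2 fold change was 0.74 with a standard error of 0.22 and a 95% interval of 0.22 to 1.26. With Benjamini-Hochberg adjustment across the tested genes, the limma p did not reach the threshold (adjusted p = 0.261), and the two-sided exact permutation test gave p = 0.1, which 3 against 3 libraries cannot go below. Without KO replicate 3 the log2 fold change was 0.56, and without WT replicate 2 it was 0.89.

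Only *IFNAR2* of the 9 genes had groups that did not overlap, where 24.1% of all tested genes had such groups and 18.3% had KO above WT. By limma with the thresholds of the study (adjusted p of at most 0.05 and absolute log2 fold change of at least 0.5), 0 of 9 members were called, as were 0 of 12241 tested genes (0.0%). The smallest adjusted p of the fit was 0.261, and *FGFR2*, the targeted gene, had this value at a log2 fold change of -2.73. The lack of calls is thus no evidence that the members are unchanged. The study used DESeq2 and reported differentially expressed genes at these limits, with *FGFR2* lower and *ISG15* and *OASL* higher in KO. Before adjustment, 2065 genes had a p of up to 0.05. When the fold limit is kept and this p is used unadjusted, 1 member was past the limits, *IFNAR2*, against 12.5% of tested genes (1536 genes, of which 1251 or 10.2% of those tested were higher and 285 or 2.33% lower in KO). With median-of-ratios scaling between libraries this split was 785 higher and 521 lower. The members' share of 1 in 9 is close to that of tested genes in general. Across the members the median log2 fold change was -0.029, with 4 means higher and 5 lower in KO, beside a median of 0.088 over all tested genes, of which 60.6% were higher. Median-of-ratios scaling moves that median to -0.017.

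**Figure D2:**
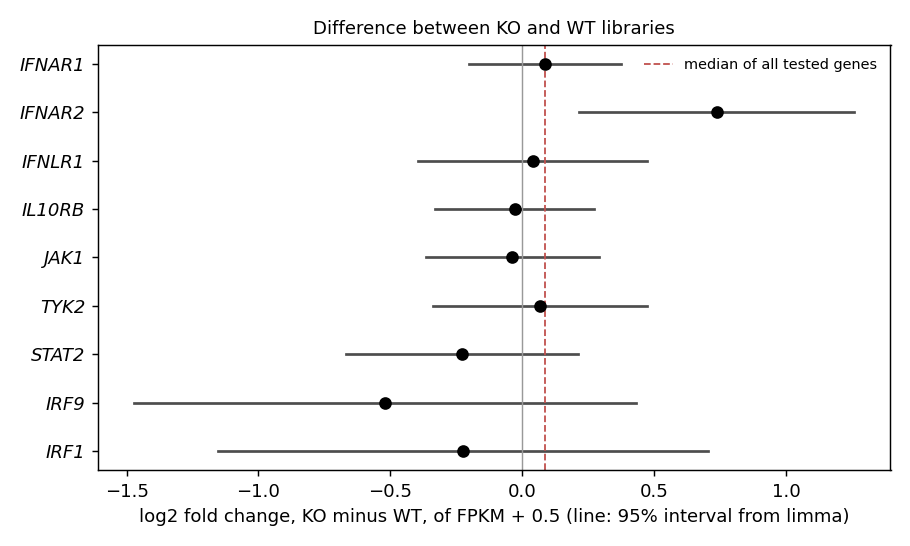
Log2 fold change (KO minus WT, of FPKM + 0.5) of each gene with its 95% interval from limma; the dashed line is the median of all tested genes, 0.088. The interval of *IFNAR2* lies above 0, and the intervals of the other 8 genes include 0.

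The annotation holds a read-through gene, *IFNAR2-IL10RB* (ENSG00000249624), on the same strand, whose fragments a gene-level count can split from those of *IFNAR2* and *IL10RB*. It had 3.15, 1.87 and 4.07 FPKM in the WT lines and 2.33, 4.98 and 3.25 FPKM in the KO lines, and its groups overlapped. Added to *IFNAR2*, the sum was 6.65, 7.08 and 7.94 FPKM in the WT lines and 8.57, 11.4 and 12.6 FPKM in the KO lines. The groups still did not overlap, and the log2 difference of the sum was 0.55 (two-sided exact permutation test, p = 0.1). In WT libraries the mean of the sum was 7.22 FPKM, above the 6.34 FPKM of *IFNLR1*. The order of the low receptor pair in WT libraries thus depends on where the read-through fragments are counted. The sum was chosen after the values had been seen. Gene-level values do not separate the membrane-bound from the soluble form of IFNAR2.

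*IFNAR1*, the second chain of the type I receptor, varied little between libraries. It lies on chromosome 21 from 33324387 to 33359864 (ENSG00000142166) and had 22.2, 22.6 and 22.6 FPKM in the WT lines and 23.7, 22.5 and 25.6 FPKM in the KO lines. The WT values lay within 0.5 FPKM of each other, and KO replicate 2 fell into their range. The log2 fold change was 0.085 with a 95% interval of -0.20 to 0.37 (limma, adjusted p = 0.741). Among tested genes, 98.4% had a larger pooled SD between libraries of a group than *IFNAR1*, whose pooled SD was 0.066 on the log2 scale.

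The ratio of *IFNAR1* to *IFNAR2* within a library was 6.35, 4.34 and 5.83 in WT and 3.80, 3.48 and 2.72 in KO replicates 1, 2 and 3. A ratio within a library does not depend on how libraries are scaled to each other. Each KO ratio lay below each WT ratio, and on the log2 scale the difference between the partners was 2.31 ± 0.26 in WT and 1.66 ± 0.23 in KO libraries (SD, n = 3). The exact two-sided permutation test gave p = 0.1, or 0.4 after adjustment over the 4 pairs of partners that were compared. It shares the values of *IFNAR2* and is no separate evidence for its difference.

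The chains of the type III receptor overlapped between the groups. *IFNLR1* (ENSG00000185436, chromosome 1 from 24154168 to 24187959), the chain specific to IFN-λ, had 5.65, 6.78 and 6.58 FPKM in the WT lines and 5.36, 7.95 and 6.46 FPKM in the KO lines, so that KO replicates 1 and 2 were the lowest and the highest library. *IL10RB* (ENSG00000243646, chromosome 21 from 33266367 to 33311420) had 23.6, 25.8 and 26.2 FPKM in the WT lines and 22.9, 26.5 and 24.8 FPKM in the KO lines. KO replicate 1 was again the lowest and KO replicate 2 the highest library. The log2 fold change was 0.040 for *IFNLR1* with a 95% interval of -0.40 to 0.47, and -0.029 for *IL10RB* with an interval of -0.33 to 0.27 (limma, adjusted p of 0.928 and 0.923). The direction of *IFNLR1* turned with median-of-ratios scaling, to -0.066, and that of *IL10RB* with TPM scaling, to 0.0085. *IFNLR1* was between 0.235 and 0.2996 times *IL10RB* in each of the 6 libraries, and the groups overlapped in this ratio (exact permutation test, p = 0.7).

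**Figure D3:**
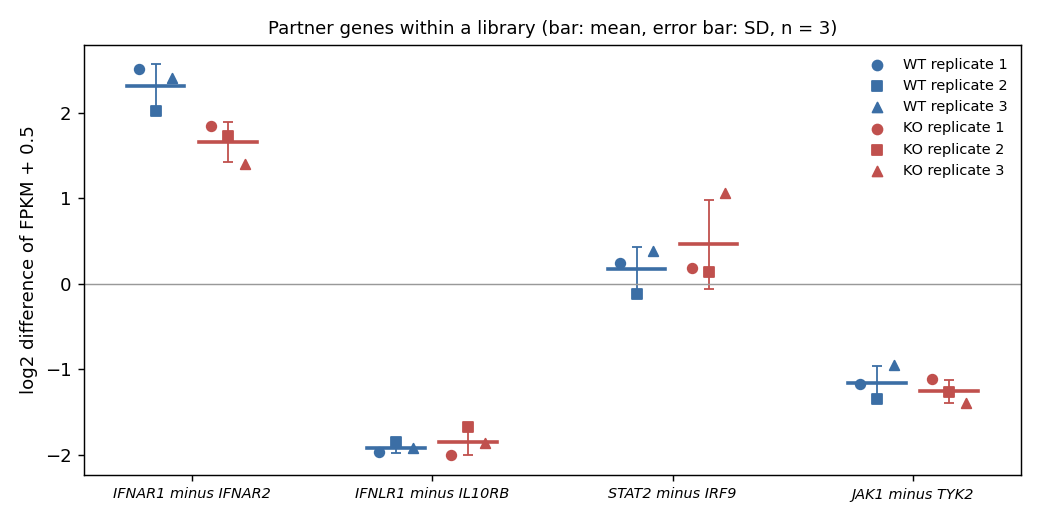
Log2 difference of FPKM + 0.5 between the genes of a pair within each library, with the mean (bar) and SD (error bar, n = 3) of each group. The KO libraries lie below the WT libraries for *IFNAR1* minus *IFNAR2*, and the groups overlap for the other 3 pairs.

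On chromosome 21, 3 receptor chains are neighbors: *IFNAR2*, *IL10RB* and *IFNAR1* follow each other, and with *IFNGR2*, a chain of the IFN-γ receptor, they span 274 kb. Relative to all tested genes of a library, the median log2 difference of the 121 tested genes of chromosome 21 from the WT mean was -0.069, -0.31 and 0.40 for the WT lines (each against the other WT libraries) and 0.31, 0.29 and 0.32 for the KO lines. The chromosome as a whole was thus higher in the KO libraries and in WT replicate 3, and lower in WT replicate 2. For the other chromosomes that hold members (1, 5, 12, 14 and 19), these medians stayed between -0.087 and 0.065 in each library. The group means of the chromosome 21 median differed by 0.30, and *IL10RB* and *IFNAR1* lay below this difference, at -0.029 and 0.085 on the log2 scale, as did *IFNGR2* at 0.14 (standard error 0.21). *PAXBP1*, the nearest tested gene before *IFNAR2*, was at 0.61 (standard error 0.19), and *TMEM50B*, which overlaps *IFNGR2* on the other strand, at 0.30 (standard error 0.19). Farther out, values were mixed: *URB1*, *GART* and *DONSON* were at 0.99 to 1.25, *CFAP298* at 0.68, *SON* at 0.33, *SYNJ1* at 0.21, *CFAP298-TCP10L* at 0.083 and *DNAJC28* at -0.37. In a further fit the chromosome medians were subtracted per library without first taking out the median of all tested genes. This also removes the shift that all chromosomes of a library share, so that more than the 0.30 was subtracted. *IFNAR2* then differed between the groups by 0.31 (standard error 0.25), *IFNAR1* by -0.35 and *IL10RB* by -0.46, with adjusted p from limma of 0.535, 0.322 and 0.312. DNA copy number was not measured here, and its part in the level of *IFNAR2* was not tested.

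**Figure D4:**
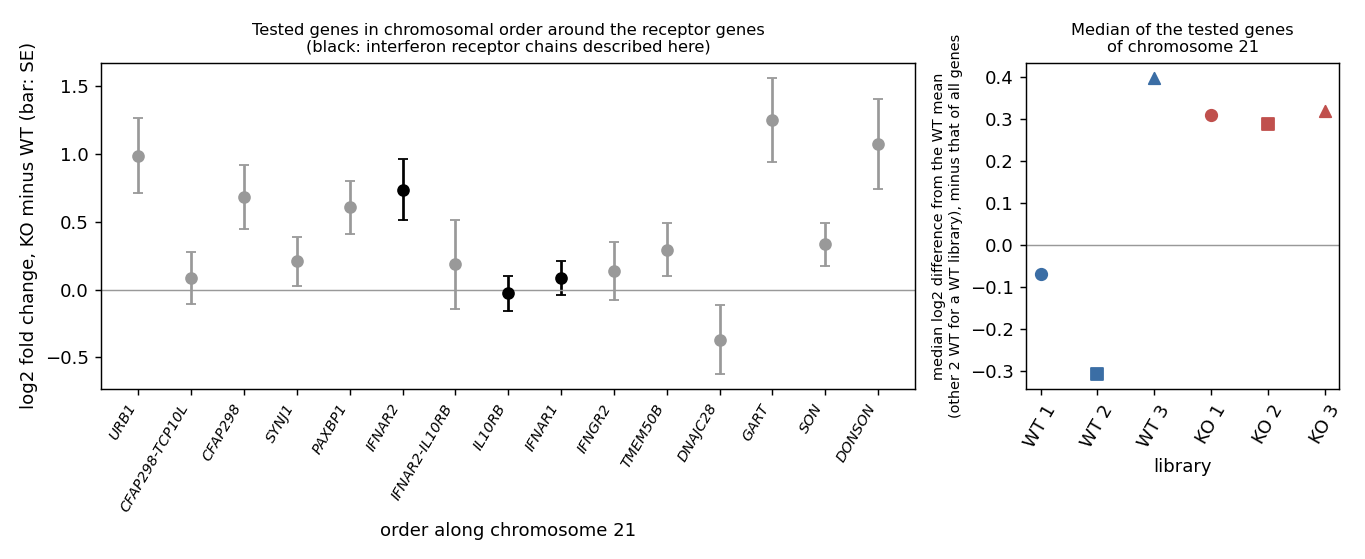
Left, log2 fold change (KO minus WT, with its standard error) of the tested genes around the receptor genes in chromosomal order, with the 3 receptor chains in black; right, the median of 121 chromosome 21 genes in each library relative to all tested genes. *IFNAR2* is at 0.74 and its neighbors *IL10RB* and *IFNAR1* are at -0.029 and 0.085, while the chromosome median is 0.29 to 0.32 in KO libraries.

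The kinase genes overlapped between the groups. *JAK1* (ENSG00000162434, chromosome 1 from 64833223 to 65067754) had 20.8, 25.3 and 22.1 FPKM in the WT lines and 23.0, 23.3 and 20.03 FPKM in the KO lines, with the extremes in WT replicate 2 and KO replicate 3. *TYK2* (ENSG00000105397, chromosome 19 from 10350533 to 10380608) was expressed at about the level of *IRF1*, with 47.4, 64.9 and 43.3 FPKM in the WT lines and 50.6, 56.6 and 53.5 FPKM in the KO lines. Here all KO values fell inside the range of the WT values. Log2 fold changes were -0.037 for *JAK1*, with a 95% interval of -0.37 to 0.29, and 0.067 for *TYK2*, with an interval of -0.34 to 0.47 (limma, adjusted p of 0.909 and 0.865). Without WT replicate 2 these values were 0.041 and 0.24. Leaving out KO replicate 3 put *JAK1* at 0.031. *TYK2* turned to -0.051 without WT replicate 3 and to -0.046 with median-of-ratios scaling. The log2 difference between *JAK1* and *TYK2* within a library shifted by -0.10 from WT to KO, with overlapping groups (exact permutation test, p = 0.5). *RAVER2* overlaps *JAK1* on the other strand and was higher in all KO libraries (5.57 to 8.64 against 3.88 to 4.94 FPKM); the libraries were strand-specific, whether the counting used strand is not given in the sources used here, and the groups overlapped for *JAK1*.

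For the transcription factors, the DNA before the RefSeq start site (250 bases, GRCh38.p14, both strands) was searched for the letters TTCNNNGAA of the GAS element, where N is any base, and for the ISRE core, a GAAA followed after 2 bases by another GAAA. A window was listed for 8 of the 9 genes, 11 windows in all; *IFNAR2* had none. The GAS letters occurred in windows of *IRF1*, *IRF9* and *IFNLR1*, and in 6.57% of all 35116 windows. The ISRE letters were found in 0 windows of the 8 genes and in 3.02% of all windows. The matching stretches are shown because *IRF1* and *IRF9* had the widest spread among the 9 genes, with the GAS letters in capitals. The stretch of *IRF9* lies before the RefSeq start site, but all 29 of its bases are in exons annotated by GENCODE. These exons are not of *IRF9* itself, which starts at 24161234 in GENCODE. Of the other stretches, 0 bases are in annotated exons of any gene. A match is a description of the reference sequence and no evidence of binding.
*IRF1* at chr5:132490844-132490943, minus strand: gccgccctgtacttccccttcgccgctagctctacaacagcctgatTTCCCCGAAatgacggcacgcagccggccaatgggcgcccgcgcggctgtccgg
*IRF9* at chr14:24161192-24161220, plus strand: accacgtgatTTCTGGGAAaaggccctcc
*IFNLR1* at chr1:24187440-24187539, minus strand: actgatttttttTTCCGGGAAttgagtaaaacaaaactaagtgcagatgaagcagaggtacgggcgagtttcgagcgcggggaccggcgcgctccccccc

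*STAT2* and *IRF9*, which encode partners in ISGF3, varied together. *STAT2* (ENSG00000170581, chromosome 12 from 56341597 to 56360203) had 22.4, 27.2 and 22.7 FPKM in the WT lines and 22.3, 24.2 and 15.9 FPKM in the KO lines. *IRF9* (ENSG00000213928, chromosome 14 from 24161234 to 24168043) had 18.9, 29.6 and 17.3 FPKM in the WT lines and 19.5, 21.9 and 7.33 FPKM in the KO lines. For both genes WT replicate 2 was the highest and KO replicate 3 the lowest library, and KO replicates 1 and 2 lay close to the WT mean. The log2 fold change was -0.23 for *STAT2*, with a 95% interval of -0.67 to 0.21, and -0.52 for *IRF9*, with an interval of -1.47 to 0.43 (limma, adjusted p of 0.550 and 0.527). These differences rested mostly on KO replicate 3: without it they were -0.048 and -0.042. Without WT replicate 2 they were -0.14 and -0.29. Without KO replicate 2 they were -0.35 and -0.80. By RT-qPCR the paper found *STAT2* significantly higher in unstimulated KO than in WT lines, opposite to the direction of the mean here. Why the directions differ was not tested.

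Over the 6 libraries Pearson's r between *STAT2* and *IRF9* on the log2 scale was 0.993 and Spearman's rho 0.771. Without KO replicate 3 and WT replicate 2, r was 0.732 over 4 libraries, so that the closeness rests on these libraries. The tested genes most like *STAT2* were *ITSN2* (r = 0.994), ENSG00000278948 (r = 0.993) and *IRF9*, and those most like *IRF9* were *ITSN2* (r = 0.998), *TNS1* (r = 0.994) and *STAT2*. Of 12241 tested genes, 355 had an r over 0.9 with *STAT2* and 314 with *IRF9*. Among the members this number ranged from 16 for *IL10RB* to 1112 for *IFNAR1*. *IFNLR1* and *IL10RB* had an r of 0.924 and a rho of 0.943. Without KO replicates 1 and 2 their r was 0.912 over 4 libraries. Without WT replicates 2 and 3, the r of *TYK2* and *IRF1* fell from 0.874 to 0.441. Without KO replicates 1 and 3, that of *IFNAR1* and *IFNAR2* fell from 0.831 to 0.403. Per length, *STAT2* was 2.16 times *IRF9* in KO replicate 3 and 0.921 to 1.31 times in the other 5 libraries (exact permutation test of the log2 ratio between the groups, p = 0.6). A protein-coding gene without a symbol (ENSG00000259529) overlaps *IRF9* on the same strand, at 0.953 to 1.80 FPKM.

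*IRF1* (ENSG00000125347, chromosome 5 from 132440440 to 132508719) varied most in absolute terms. It had 46.0, 93.4 and 31.0 FPKM in the WT lines and 30.8, 52.0 and 52.1 FPKM in the KO lines. WT replicate 2 was the highest library, and the lowest values of both groups were nearly the same. Its log2 fold change of -0.22 had a 95% interval of -1.15 to 0.71 (limma, adjusted p = 0.790) and turned to 0.21 without WT replicate 2 and to 0.026 without KO replicate 1. Without WT replicate 3 it was -0.58. Only 6.63% of tested genes had a larger pooled SD than *IRF1* (0.64 on the log2 scale), and 6.35% a larger one than *IRF9* (0.66). Genes most like *IRF1* were *ILK* (r = 0.997), *H1-3* (r = 0.995) and *PTK2* (r = 0.993), among 264 with an r over 0.9 in 6 libraries.

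**Figure D5:**
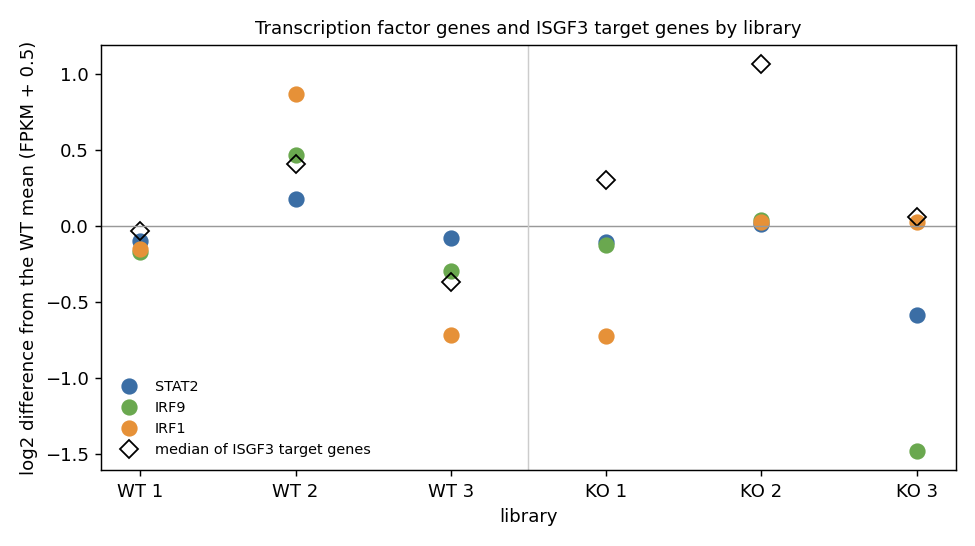
Log2 difference of *STAT2*, *IRF9* and *IRF1* from their WT mean in each library, with the median of 27 tested ISGF3 target genes as open diamonds. The target genes are highest in KO replicate 2 (1.06), where the 3 factors are between 0.01 and 0.04, and *IRF9* is lowest in KO replicate 3 (-1.48).

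Target genes and factors were also set side by side. Of 30 ISGF3 target genes, 27 were tested and 0 were called by limma. At the unadjusted limits 5 were higher and 1 lower in KO, against 10.2% and 2.33% of tested genes. Their median log2 fold change was 0.45, beside 0.088 for all tested genes. In 6 of the 27 the KO libraries were all above and in 1 all below the WT libraries, against 18.3% and 5.77% of tested genes. *ISG15*, a ubiquitin-like modifier, had 5.60, 6.23 and 4.57 FPKM in the WT lines and 10.6, 25.4 and 9.83 FPKM in the KO lines (log2 fold change 1.28, standard error 0.35). *OASL*, a oligoadenylate synthetase-like protein, had 2.61, 1.81 and 1.01 FPKM in the WT lines and 9.61, 28.2 and 3.33 FPKM in the KO lines (2.23, standard error 0.67). In both genes KO replicate 2 stood far above the other KO lines. *OAS3*, a sensor of double-stranded RNA, had 26.9, 22.4 and 26.9 FPKM in the WT lines and 32.5, 39.0 and 32.6 FPKM in the KO lines, and *IFI6* and *HERC5*, both under 0.6 FPKM in each WT line, reached 2.39 and 2.19 FPKM in KO replicate 2. *IFI27* went the other way, with 0.797 to 1.25 FPKM in the WT and 0.199 to 0.483 FPKM in the KO libraries. The adjusted p from limma of these 6 genes was 0.261. By library, the median difference of the targets from the WT mean was -0.035, 0.40 and -0.37 in the WT lines and 0.31, 1.06 and 0.056 in the KO lines. KO replicate 2 had the highest target level, with *STAT2* and *IRF9* at 24.2 and 21.9 FPKM, close to their WT means of 24.1 and 21.9 FPKM. The median fold change of the targets depended on single libraries: it was 0.12 without KO replicate 2, 0.074 without WT replicate 3, 0.76 without WT replicate 2 and 0.83 without KO replicate 3.

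Interferon genes themselves were almost absent. Of 21 ligand genes, 0 reached the minimum for testing and 17 were listed at 0 in all 6 libraries, *IFNB1* and the IFN-α genes among them. *IFNE*, an epithelial type I interferon, had 0.120 to 0.170 FPKM in the WT and 0.038 to 0.223 FPKM in the KO libraries. *IFNK* had 0, 0.013 and 0 FPKM in the WT lines and 0.019, 0.012 and 0.020 FPKM in the KO lines. *IFNL1* was listed at 0 in each WT library and had 0.015, 0.054 and 0 FPKM in KO replicates 1, 2 and 3; at this depth 1 fragment on 1 kb corresponds to 0.0114 to 0.0148 FPKM, so that these levels stand for a few fragments. *IFNL2* was above 0 in KO replicate 2 alone (0.029 FPKM), and its sequence is close to that of *IFNL3*.

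Among the other JAKs, STATs and the IFN-γ receptor chains, 7 of 10 genes were tested and 0 called. *STAT5B*, a mediator of cytokine and growth hormone signals, had 19.5 ± 1.95 FPKM in the WT and 25.99 ± 2.91 FPKM in the KO libraries (SD, n = 3) with no overlap, and a log2 fold change of 0.40 (limma, adjusted p = 0.263). *STAT6* and *STAT3* had means that were lower in KO by 0.22 and 0.19 on the log2 scale, with overlapping groups. Of the other 7 interferon regulatory factors 5 were tested and 0 called. *IRF3*, which acts downstream of nucleic acid sensors, had 59.2 to 61.9 FPKM in the WT and 67.1 to 68.2 FPKM in the KO libraries, a small difference without overlap (log2 fold change 0.16, standard error 0.11). *IRF7*, an ISG, overlapped with 7.95 ± 2.84 and 7.90 ± 0.794 FPKM (SD, n = 3).

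Of 17 genes that restrain interferon signaling, 15 were tested and 0 called. At the unadjusted limits 4 were higher and 0 lower in KO, against 10.2% and 2.33% of tested genes. In 8 the KO lines were all above and in 1 all below the WT lines, against 18.3% and 5.77% of tested genes. *SOCS3*, an inhibitor of JAK kinases, had 1.39, 0.828 and 1.26 FPKM in the WT lines and 2.30, 1.98 and 2.57 FPKM in the KO lines (log2 fold change 0.76, standard error 0.22). *USP18*, an ISG whose product binds IFNAR2 and blocks type I signaling, had 1.87, 1.05 and 4.42 FPKM in the WT lines and 4.43, 4.85 and 4.96 FPKM in the KO lines, so that WT replicate 3 came close to the KO libraries; copies of this gene with nearly the same sequence can share its reads. *PIAS2*, a SUMO ligase that binds STATs, was at 0.73 on the log2 scale (standard error 0.22), *TRIM28*, a transcriptional corepressor, 0.66 (0.24), and *PTPN11*, a tyrosine phosphatase, 0.41 (0.15). The adjusted p of these 5 genes from limma lay between 0.261 and 0.277. The median of the list was 0.22, beside 0.088 for all tested genes. The shares that were higher in KO lie above those of all tested genes, but the list was chosen with earlier results known and the difference in shares was not tested.

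Of 16 other receptor chains that signal through JAK1 or TYK2, 11 were tested and 0 called. *OSMR*, the oncostatin M receptor, had 11.8 ± 1.42 FPKM in the WT and 15.02 ± 1.29 FPKM in the KO libraries (SD, n = 3) without overlap, and *IL27RA* 0.318 ± 0.031 and 1.32 ± 1.07 FPKM, with 2.55 FPKM in KO replicate 3. Among 20 IFN-γ target genes, including targets of IRF1, 14 were tested, 0 were called, and the median log2 fold change was 0.18. *TAP2*, a peptide transporter subunit, had 24.4 to 29.1 FPKM in the WT and 31.4 to 47.2 FPKM in the KO libraries, while *WARS1*, a tryptophanyl-tRNA synthetase, and *APOL1*, an apolipoprotein, overlapped between the groups. *GBP1*, an interferon-induced GTPase, was higher in each KO library (2.21 to 2.81 against 1.01 to 1.69 FPKM), while *GBP2* was at a log2 fold change of -0.9998 (standard error 0.42) with overlapping groups.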

How the data were processed

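Per the labels, poly(A)-selected, strand-specific libraries were sequenced, 3 from WT and 3 from *FGFR2* KO HaCaT lines. The authors cleaned reads with fastp 0.20.0, quantified them with kallisto 0.46.1 on GRCh38.p13 with GENCODE gene models, and deposited FPKM per gene; how these FPKM were calculated is not given in the sources used here. Of 21493 genes, 18 Y copies of pseudoautosomal genes were left out. Symbols and positions came from GENCODE release 44 (21400 genes matched), promoters from RefSeq. At the estimated depth, 70.5% to 74.3% of low values of single-transcript genes were whole fragments within 0.02 (4% by chance); count models were therefore not used. For genes averaging 0.5 FPKM or more, log2(FPKM + 0.5) was compared between groups with limma (version 3.58.1, R 4.3.3), with a mean-variance trend and Benjamini-Hochberg adjustment; the pseudocount understates changes of low genes. The procedure was run on simulated data with independent noise in each gene. Shifts shared by the genes of a library or a chromosome were not simulated, so how well changes are found here was not tested. Single values were compared by exact two-sided permutation tests (scipy 1.17.1). Named were the members, *FGFR2*, up to 5 genes of each list with the smallest unadjusted p, genes that overlap a member or lie in the receptor cluster, and the 3 genes most correlated with *STAT2*, *IRF9* and *IRF1*; other genes were chosen after their values were seen. Lists were written by hand. The members and lists were chosen with earlier results of these data known. P-values measure the spread between cell lines. A gene of the pathway is not reported here.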

Additional observations from a re-analysis of the deposited data

How the results depend on the processing

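Alternatives were other pseudocounts (0.1 and 1), no filter on low values or a minimum average of 2 FPKM, TPM, median-of-ratios and quantile scaling, an empirical Bayes step without trend or robust, a replicate block, weights for libraries, chromosome medians removed, and each library left out in turn. Removing chromosome medians also takes out the shift that all chromosomes of a library share. The median log2 fold change of all tested genes was then -0.017. The count of 0 called genes, members and list genes changed with library weights alone, to 1396 genes (1160 higher and 236 lower), 1 member and 13 list genes; WT replicate 1 then had 89.7% of the weight of its group. In that fit *FGFR2* was called at -2.66 and *IFNAR2* at 0.82 (limma, adjusted p = 0.031; between 0.031 and 0.634 over its alternatives). *IFNAR2*, *STAT2* and *IRF9* kept their direction under all 18 alternatives, *IFNAR2* between 0.31 and 0.89. Directions turned for small values, and the cause was not tested: with median-of-ratios scaling for *IFNAR1* (-0.027), *IFNLR1* (-0.066) and *TYK2* (-0.046); with quantile normalization for the same genes (-0.026, -0.049 and -0.062); with TPM scaling for *IL10RB* (0.0085); with library weights for *IL10RB* (0.0079) and *JAK1* (0.10); and with chromosome medians removed for *IFNAR1* (-0.35), *IFNLR1* (-0.042) and *TYK2* (-0.030). With a library left out, log2 fold changes went from -0.095 to 0.17 for *IFNLR1*, -0.080 to 0.025 for *IL10RB*, -0.098 to 0.041 for *JAK1*, -0.051 to 0.24 for *TYK2* and -0.58 to 0.21 for *IRF1*, and the partner differences from -0.015 to 0.14 for *IFNLR1* and *IL10RB* and from -0.0065 to 0.45 for *STAT2* and *IRF9*. The replicate numbers are shared by both groups, and the labels name no pairing of the libraries. Deviations from the group means correlated at -0.21, 0.22 and 0.05 for numbers 1, 2 and 3, and at -0.37 to 0.29 for unlike numbers. Whether libraries of the same number share a batch was not tested. With the replicate number as a block, 0 genes were called, 1762 against 1536 passed the unadjusted limits, and *IFNAR2* had an adjusted p of 0.182 from limma. With 3 lines a group, intervals of *IRF9* and *IRF1* are too wide to show even large differences.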
